A study of Mus musculus with 13 samples.

Results

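H3K27ac regions that lost their enriched island in mouse macrophages given interferon-γ (IFNγ) for 4 h, but still held one after interleukin-4 (IL-4) for 4 h, are described here. Enriched islands of 13 libraries were merged wherever they overlapped, which gave 39569 regions. A region was kept when it held an island in untreated cells and in IL-4 4 h cells and none in IFNγ 4 h cells, and 1768 regions met this rule. They are called the IFNγ-lost regions below. Of the 21625 regions with an island in untreated cells, 17100 held one in both the IFNγ 4 h and the IL-4 4 h library, 1016 lacked it with IL-4 only and 1741 lacked it in both. The first are called kept regions below, and both cytokines means IFNγ and IL-4 given together. Macrophages from the bone marrow of C57BL/6 mice were studied on day 7 of differentiation, in medium conditioned by L929 cells. The cytokine experiment had 1 library each of cells given IFNγ at 100 ng/ml for 2 h or 4 h, IFNγ with IL-4 for 2 h or 4 h, IL-4 at 10 ng/ml for 2 h or 4 h, and untreated cells. The knockdown experiment had cells carrying a scramble, shJunB or shCEBP-beta hairpin, each with IFNγ for 4 h and untreated, again 1 library per condition. How well the hairpins lowered JunB or C/EBPβ cannot be read from a histone mark. No condition was replicated, so the spread used in any test below is the spread between the 3 hairpin backgrounds, and the labels do not say which cultures were shared.

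Acetylation of lysine 27 on histone H3 marks active promoters and enhancers, and it is gained and removed as acetyltransferases and deacetylases are recruited to them. IFNγ signals through JAK1 and JAK2 and drives the classical, microbicidal activation of macrophages. IL-4 signals through STAT6 and drives alternative activation, which favours lipid handling, repair and the uptake of dying cells. IFNγ is known both to switch on interferon-stimulated genes and to take activity away from enhancers of resting macrophages.

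The promoters of 5 of the leading regions are printed here, since these are the genes whose start sites lie in an island of untreated cells that was not called after IFNγ. They came from the rules that ranked regions by their reads in untreated cells or by their pattern over the libraries. Each is 300 bases from RefSeq on GRCm38.p6, from 250 bases before the start to 50 bases after it, written 5′ to 3′ on the gene's strand. Gas6 is at chr8:13494486-13494785 on the minus strand, Kif3a at chr11:53567119-53567418 on the plus strand and Cmah at chr13:24414872-24415171 on the plus strand. Ldlrad3 is at chr2:102186411-102186710 on the minus strand and Abca9 at chr11:110168104-110168403 on the minus strand. Capitals mark a match to any motif named in the next paragraph.
Gas6 promoter: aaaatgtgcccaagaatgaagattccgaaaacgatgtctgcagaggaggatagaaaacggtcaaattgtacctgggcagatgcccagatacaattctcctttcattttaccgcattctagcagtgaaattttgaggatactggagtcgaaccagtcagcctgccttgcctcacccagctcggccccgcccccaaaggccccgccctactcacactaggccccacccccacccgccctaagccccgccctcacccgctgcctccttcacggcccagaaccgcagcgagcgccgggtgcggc
Kif3a promoter: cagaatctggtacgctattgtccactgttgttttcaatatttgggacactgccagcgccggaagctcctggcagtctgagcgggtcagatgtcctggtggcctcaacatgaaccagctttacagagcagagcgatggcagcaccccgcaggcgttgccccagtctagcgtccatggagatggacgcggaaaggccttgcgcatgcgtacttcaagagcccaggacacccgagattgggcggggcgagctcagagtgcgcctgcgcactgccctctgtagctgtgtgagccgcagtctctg
Cmah promoter: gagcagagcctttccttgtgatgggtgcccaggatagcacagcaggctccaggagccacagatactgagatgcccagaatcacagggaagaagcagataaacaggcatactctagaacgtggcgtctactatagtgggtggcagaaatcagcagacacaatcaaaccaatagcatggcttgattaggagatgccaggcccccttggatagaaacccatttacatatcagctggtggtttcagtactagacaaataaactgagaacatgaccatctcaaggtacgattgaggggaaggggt
Ldlrad3 promoter: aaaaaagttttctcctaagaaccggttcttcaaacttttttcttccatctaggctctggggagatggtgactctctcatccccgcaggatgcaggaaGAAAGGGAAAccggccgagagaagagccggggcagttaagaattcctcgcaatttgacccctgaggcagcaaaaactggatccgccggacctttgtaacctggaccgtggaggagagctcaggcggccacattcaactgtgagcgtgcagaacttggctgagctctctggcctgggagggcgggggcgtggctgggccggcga
Abca9 promoter: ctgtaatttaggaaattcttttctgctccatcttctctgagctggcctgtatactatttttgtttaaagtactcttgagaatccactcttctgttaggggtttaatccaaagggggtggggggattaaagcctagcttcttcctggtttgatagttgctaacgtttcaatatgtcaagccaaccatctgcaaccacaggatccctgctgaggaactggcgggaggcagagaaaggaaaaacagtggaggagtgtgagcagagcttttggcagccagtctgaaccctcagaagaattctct

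Of these 5 the Ldlrad3 promoter held a match, an ISRE-type sequence from base 98. The Foxred2 promoter, of a region among the largest edgeR differences described later, held E-box matches from bases 147 and 206. Among RefSeq promoters, 129 overlapped an untreated island of an IFNγ-lost region, 10310 overlapped one of a kept region, and 21263 were searched in all. The promoters searched belong to 17492 of 21900 protein-coding genes (79.9%). Both strands were searched. The ISRE-type motif, GAAA and GAAA with any 2 bases between, bound by interferon regulatory factors, was in 3.1% of the promoters of IFNγ-lost regions, 3.34% of those of kept regions and 3.35% of all promoters. The GAS motif TTCNNNGAA, bound by STAT factors, was in 3.1%, 7.09% and 7.69% in the same order. The STAT6-type motif, TTC and GAA with any 4 bases between, was in 4.65%, 5.47% and 6.35%. The E-box CACGTG of MITF and TFE factors was in 17.1% (22 of 129), 10.4% and 7.84%, a higher share than in either other set. The AP-1 motif TGANTCA was in 7.75%, 4.99% and 6.99%, and the C/EBP motif TTGCNNAA in 10.1%, 8.22% and 10.2%. The PU.1 motif GAGGAAGT was in 0.775%, 3.47% and 3.13%, and the ETS-IRF composite, GGAA and GAAA with any 2 bases between, in 0.775%, 2.36% and 2.53%. The EGR motif GCGTGGGCG was in 0.0%, 1.29% and 0.828%, and the RXR repeat of AGGTCA with 1 base between copies in 0.0%, 0.0097% and 0.047%. The RXR repeat with 4 bases between copies was in 0.0% of each set. A PU.1 match can lie inside an ETS-IRF match, and GAS and STAT6-type matches can share letters. These shares are descriptions of small sets and carry no test.

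The IFNγ-lost regions were mostly small and weak. Reads are ChIP reads in the islands of a region, divided by a library size factor (median of ratios over regions called in all 13 libraries), and they are called normalised reads. The libraries that chose the regions are given here as a description. In IL-4 4 h cells the IFNγ-lost regions had a median of 88.9 normalised reads (21.3 to 5358.1), against 132.3 (27.9 to 8874.4) in untreated cells. Under 100 reads in untreated cells stood 630 of them (35.6%), and 197 (11.1%) had 400 or more. The kept regions had a median of 440.6 reads in untreated cells. The IFNγ 4 h library had 28.1 M reads in islands and the untreated library 16.8 M. Reads in islands depend on what was called and do not give the sequencing depth. A missing island says that the authors' threshold was not met, which is no measurement of 0.

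An island that remained after IL-4 did not mean an equal level. Between IL-4 4 h and untreated cells the median log2 difference over the IFNγ-lost regions was -0.57. At least 2-fold lower with IL-4 were 607 of 1768 (34.3%), where the share over all 18868 regions with both islands was 18.0%, and 194 (11.0%) were at least 2-fold higher, where it was 9.18%. A call of 2-fold also needed 50 normalised reads in the higher library. Both libraries were used by the rule, so nothing is read from these shares. Of the 197 regions with 400 or more reads in untreated cells, 150 (76.1%) were at least 2-fold lower with IL-4 and 4 were higher. Over all regions with both islands and 400 or more untreated reads 21.4% were lower.

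At the edge of the rule the values were near the smallest islands called. Just inside it, regions near Ilf2, over Ephb2 and over Rwdd3 had no island in IFNγ 4 h cells, against 29.1, 29.1 and 27.9 normalised reads in untreated cells. Just outside it, regions over Cep170b, near Bbs5 and over Lpar2 and Pbx4 had 20.3, 21.0 and 22.5 reads in IFNγ 4 h cells, against 106.8, 38.8 and 63.1 in untreated cells. The region over Cep170b shows how close the boundary runs. It is not counted as lost, and in the knockdown experiment it had 85.1, 265.3 and 84.5 reads with IFNγ in scramble, shJunB and shCEBP-beta cells, against 391.2, 528.9 and 355.3 untreated.

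In the libraries that the rule did not use, islands at these regions were fewest with IFNγ alone. An island was called in IFNγ 2 h cells at 502 of 1768 (28.4%, exact 95% interval 26.3 to 30.6), where the share over all regions with an untreated island was 81.2%. With both cytokines at 2 h it was 45.9% (43.6 to 48.3) against 83.2% of all, and with IL-4 at 2 h 63.6% (61.3 to 65.8) against 82.5%. With both cytokines at 4 h 895 (50.6%, 48.3 to 53.0) had an island, against 84.6% of all. The rule fixed an absence in the IFNγ 4 h library, so a higher share in another library is in part set by the choice of regions. The 2 h libraries were not used by the rule, but it did require an island with IL-4 at 4 h. Intervals cover counting error only, and there is no replicate check on any of these shares.

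**Figure D1:**
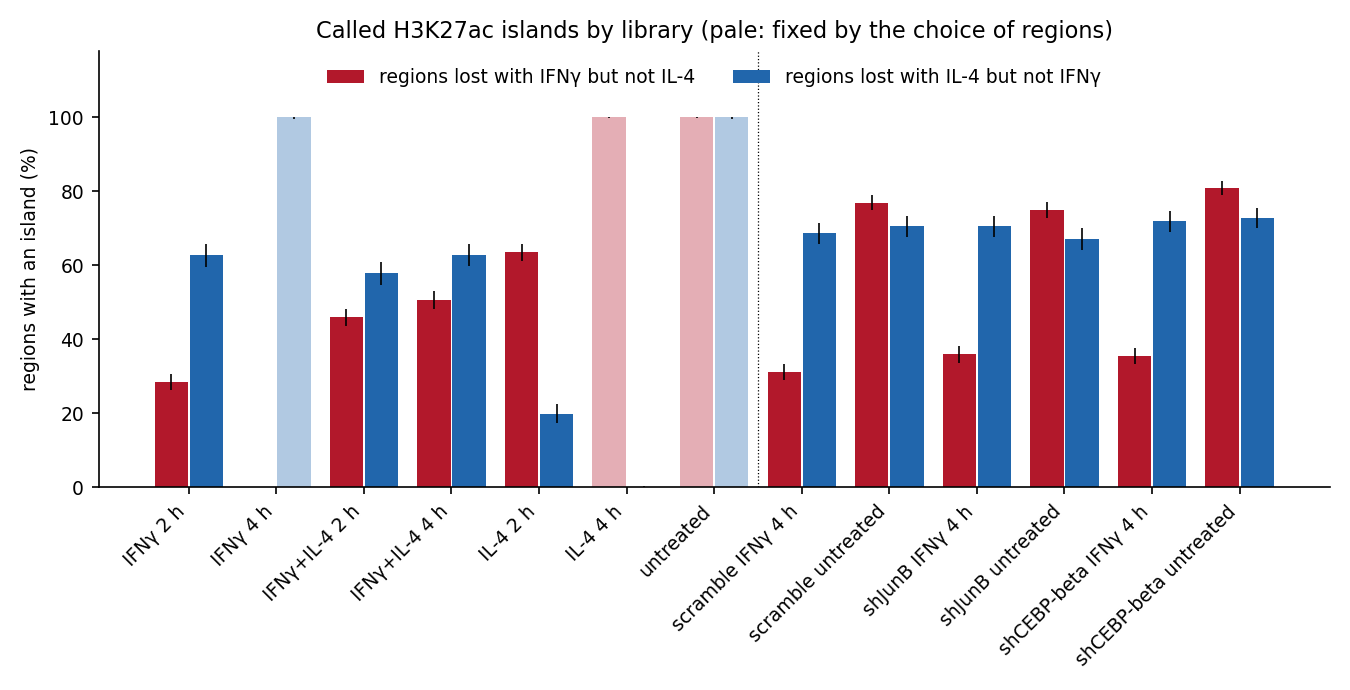
Percent of regions (vertical axis) with an island in each of the 13 libraries (horizontal axis), for the 1768 IFNγ-lost regions in red and the 1016 regions lost with IL-4 only in blue, with exact 95% intervals of counting error. Pale bars and the empty places at IFNγ 4 h and IL-4 4 h were fixed by the choice of regions; in the 3 hairpin backgrounds red bars stand at 31.2% to 35.9% with IFNγ, against 75.0% to 80.9% untreated, and blue bars at 68.7% to 71.9%, against 67.1% to 72.9%.

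The largest IFNγ-lost region lay over Gas6, Tmem255b and 1700029H14Rik, at chr8:13475601-13556200. Gas6 is a secreted ligand that bridges phosphatidylserine on dying cells to the receptors Tyro3, Axl and Mertk on phagocytes. The region had 711.2 normalised reads in IFNγ 2 h cells and no island in IFNγ 4 h cells, 1219.3 and 1127.4 with both cytokines at 2 h and 4 h, 2192.4 and 3202.1 with IL-4, and 8874.4 in untreated cells. In the knockdown experiment it had 855.5 with IFNγ against 5049.5 untreated in scramble cells, 938.3 against 5861.9 in shJunB cells and 1025.7 against 5469.1 in shCEBP-beta cells. Every library with IFNγ was below every library without it, and the 3 IFNγ values of the knockdown experiment lay close together at 0.169, 0.160 and 0.188 of their untreated partners. By edgeR's quasi-likelihood test over the 3 pairs the log2 difference was -2.52 ± 0.08 (SE, adjusted p = 0.000394). Its nearest island in IFNγ 4 h cells was 33.0 kb away.

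Slc16a7, a transporter of lactate, pyruvate and ketone bodies, had the next most reads (chr10:125297201-125339200). Its region had no island at either time with IFNγ alone, 402.5 and 1119.3 normalised reads with both cytokines at 2 h and 4 h, 972.3 and 1365.7 with IL-4, and 3976.0 in untreated cells. No island was called with IFNγ in scramble, shJunB or shCEBP-beta cells, against 2654.9, 2246.6 and 1792.9 reads untreated. All 5 libraries with IFNγ alone lacked the island, and both libraries with IL-4 added held it.

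Ldlrad3, which encodes a membrane protein with low-density-lipoprotein receptor class A repeats, kept a level near that of untreated cells with IL-4 (chr2:102177001-102204000). In the cytokine experiment it had no island with IFNγ alone, 1172.5 and 995.0 reads with both cytokines at 2 h and 4 h, 1384.4 and 1601.0 with IL-4, and 1694.3 in untreated cells. Scramble cells had 305.9 reads with IFNγ and 1248.1 untreated, and shCEBP-beta cells 384.7 with IFNγ and 1159.0 untreated. In shJunB cells no island was called with IFNγ, against 691.0 reads untreated. With IL-4 at 4 h the level was 0.945 of that in untreated cells, where at Gas6 it was 0.361.

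The intergenic region 39.6 kb from Chic2 went the other way with IL-4 (chr5:74942001-74965400). In the cytokine experiment it had no island with IFNγ alone, 862.7 and 952.9 normalised reads with both cytokines at 2 h and 4 h, 2258.7 and 2692.5 with IL-4, and 222.1 in untreated cells, so that IL-4 at 4 h stood 12.1-fold higher. In the knockdown experiment it had 112.9, 78.9 and 233.6 reads with IFNγ in scramble, shJunB and shCEBP-beta cells, against 908.8, 671.1 and 1113.7 untreated. Every IFNγ library there was below every untreated one, and the log2 difference was -2.73 ± 0.20 (edgeR, adjusted p = 0.000783). Untreated cells of the knockdown experiment were 3 or more times above the untreated cytokine library at this region, and whether the difference lies in the hairpin vector, the cultures or the libraries cannot be told apart.

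**Figure D2:**
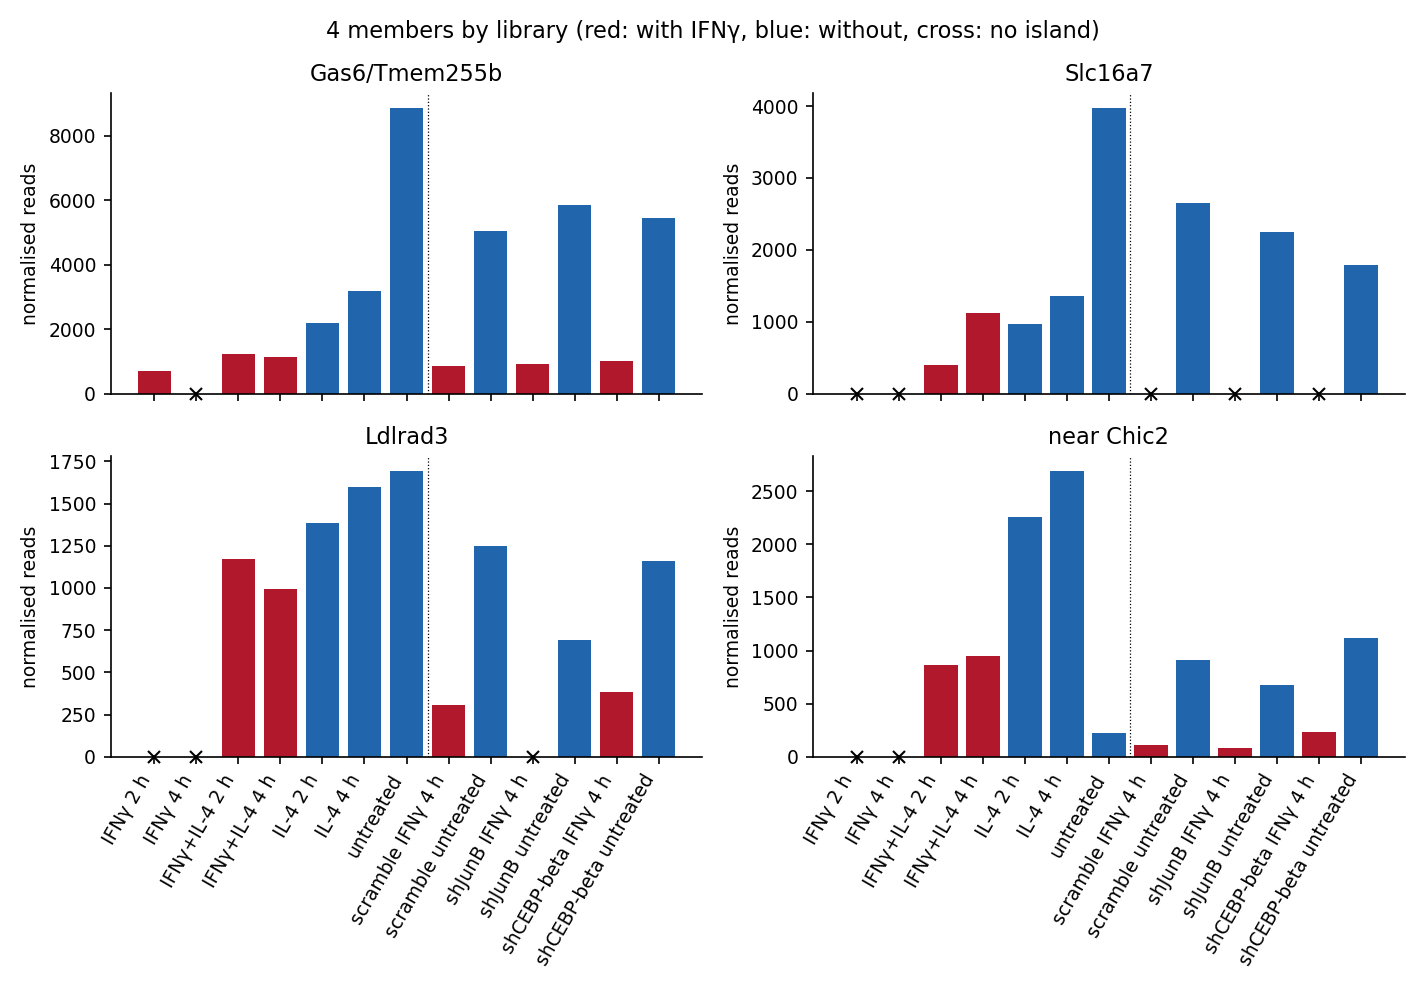
Normalised reads (vertical axes) in each library (horizontal axis) at 4 IFNγ-lost regions, with IFNγ in red, without it in blue and a cross where no island was called; the dotted line separates the cytokine from the knockdown experiment. Gas6 and Slc16a7 were highest in untreated cells, at 8874.4 and 3976.0 reads, Ldlrad3 was near level with IL-4 and untreated, and the region near Chic2 was highest with IL-4 at 4 h, at 2692.5 reads.

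Other regions high in untreated cells lay over genes of varied function. Kif3a, a motor subunit of heterotrimeric kinesin that works in cilia and vesicle transport, had the next most reads (chr11:53560001-53572200). In the cytokine experiment it had no island with IFNγ alone or with IL-4 at 2 h, 530.0 and 133.1 reads with both cytokines at 2 h and 4 h, 266.8 with IL-4 at 4 h and 2409.1 in untreated cells. With IFNγ it had 235.6, 270.8 and 350.9 reads in scramble, shJunB and shCEBP-beta cells, against 1295.6, 1148.9 and 1278.2 untreated, and fell by 2.11 ± 0.14 on the log2 scale (edgeR, adjusted p = 0.000654). Cmah, the hydroxylase that turns acetyl into glycolyl sialic acid in mice, had an island in 7 of 13 libraries (chr13:24391001-24420200). It was called in no cytokine library with IFNγ, in IL-4 4 h cells at 183.5 reads and in untreated cells at 1854.5. With IFNγ it was not called in scramble cells and had 60.3 and 70.6 reads in shJunB and shCEBP-beta cells, against 741.3, 1142.2 and 1100.6 untreated. Adgrv1, a very large adhesion G protein-coupled receptor, had a log2 difference of -2.31 ± 0.12 (adjusted p = 0.000537), and Tmcc1, an endoplasmic reticulum membrane protein, of -1.98 ± 0.24 (adjusted p = 0.00279), both by the same edgeR test. Wdr75, a factor of ribosome biogenesis, Atp8a2, a phospholipid flippase, and Shisa9, known from neurons as a partner of glutamate receptors, had 1638.5, 1460.0 and 1428.5 reads in untreated cells. Shisa9 was called with IFNγ in shJunB and shCEBP-beta cells at 63.6 and 133.2 reads, against 1493.0 and 1336.6 untreated, and in no other library with IFNγ. Wdr75 and Atp8a2 were called with IFNγ at 2 h, at 397.3 and 186.6 reads, and in none of the 3 hairpin libraries with IFNγ.

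The strongest regions that touched no protein-coding gene lay near Prl5a1, Tigd4, Rhoj, Smad3 and Ednrb, at distances of 260.0, 17.0, 20.5, 16.4 and 92.3 kb. Smad3 relays transforming growth factor-β signals to the nucleus and Rhoj is a small GTPase. The region near Smad3 (chr9:63774401-63798200) had 482.6, 682.9 and 295.2 reads with IFNγ in scramble, shJunB and shCEBP-beta cells, against 1172.4, 1310.0 and 1173.8 untreated. Its log2 difference was -1.38 ± 0.21 (edgeR, adjusted p = 0.00562), that near Rhoj -1.92 ± 0.23 (adjusted p = 0.00255) and that near Prl5a1 -1.74 ± 0.16 (adjusted p = 0.00128). The region near Ednrb, the endothelin B receptor, had no island with IFNγ in any background, and none in untreated shJunB cells either, against 598.6 and 451.0 reads in untreated scramble and shCEBP-beta cells.

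**Figure D3:**
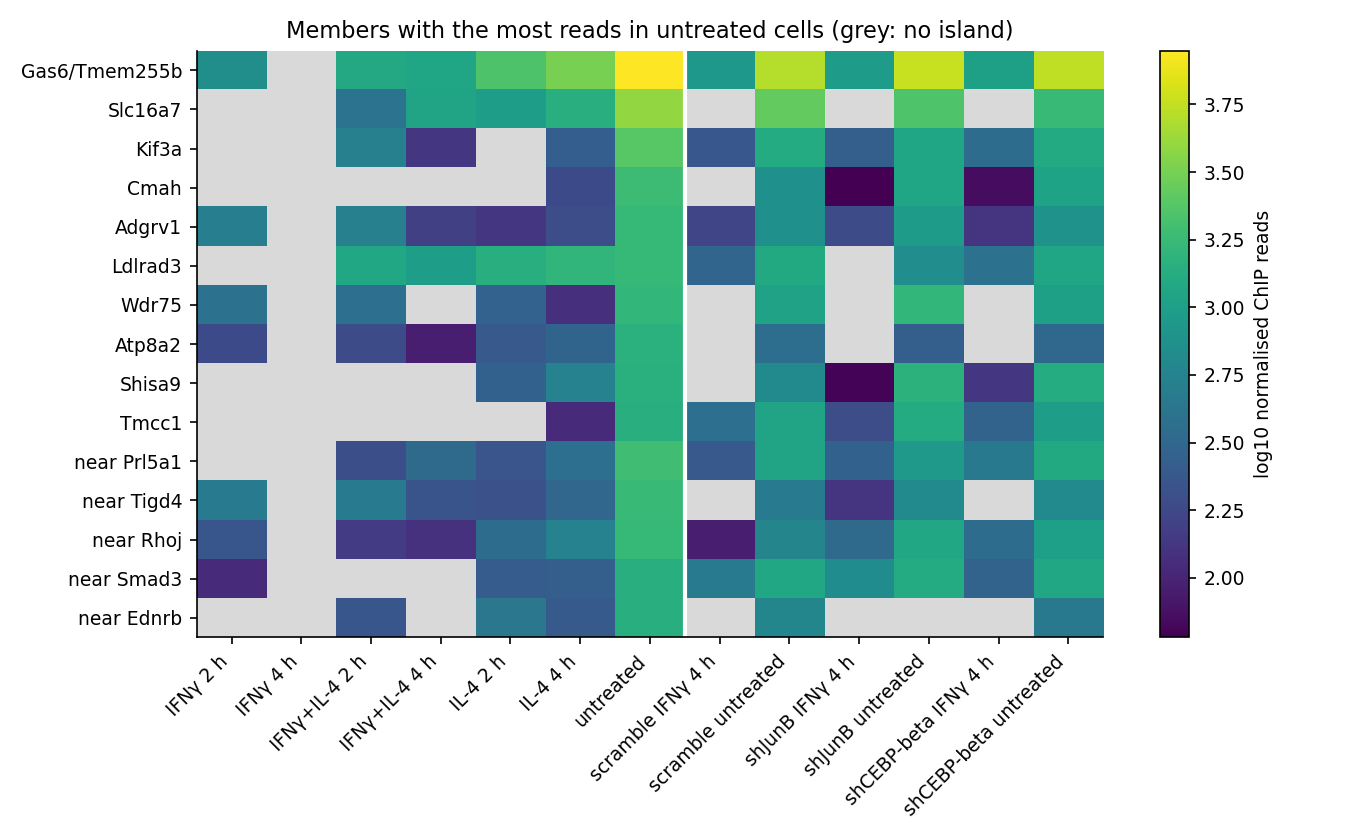
Log10 of the normalised reads (colour) at 15 IFNγ-lost regions, the 10 over protein-coding genes and the 5 between genes with the most reads in untreated cells (rows), in the 13 libraries (columns), with grey where no island was called. The column of IFNγ at 4 h is grey throughout by the choice of regions; in the 3 columns of hairpin cells with IFNγ the regions are grey or lower than in the untreated column beside them.

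The knockdown experiment asked, with libraries outside the rule, whether the regions again lost their islands with IFNγ. In scramble cells 839 of the 1360 regions with an untreated island had none after IFNγ (61.7%, exact 95% interval 59.0 to 64.3), where the share over all 23396 such regions was 18.9%. In shJunB cells it was 710 of 1326 (53.5%, 50.8 to 56.3), where the share over all was 15.6%, and in shCEBP-beta cells 818 of 1430 (57.2%, 54.6 to 59.8), where it was 19.0%. The regions lost with IL-4 only, chosen by the mirror rule, lost 22.8%, 18.0% and 17.8% of their islands in the 3 backgrounds. The 1741 regions without an island in either the IFNγ 4 h or the IL-4 4 h library lost 78.6%, 67.5% and 73.0%. Where both libraries of a pair held an island, at least 2-fold lower with IFNγ were 219 of 521 in scramble cells (42.0%, and 10.0% of all regions), 217 of 616 in shJunB cells (35.2%, and 9.09% of all) and 278 of 612 in shCEBP-beta cells (45.4%, and 9.52% of all). At least 2-fold higher were 1, 10 and 4 of them, where 10.9%, 11.4% and 10.5% of all regions were. Reads in islands were fewer with IFNγ in each pair, 10.1 against 15.1 M in scramble, 15.9 against 17.4 M in shJunB and 17.5 against 19.2 M in shCEBP-beta cells, and the part of depth in the lost islands was not tested.

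Weak regions lost their islands more often in every group, and the IFNγ-lost regions lost more at each level. Among those with under 100 reads in untreated scramble cells, 79.7% (75.4 to 83.5) had no island after IFNγ, against 33.2% (27.6 to 39.2) of the regions lost with IL-4 only and 53.1% of all regions. At 100 to 200 reads it was 60.9% against 21.1% and 27.6%, and at 200 to 400 reads 51.8% against 12.6% and 8.84%. At 400 reads or more 46 of 135 IFNγ-lost regions had none (34.1%, 26.1 to 42.7), against 1 of 43 (2.33%, 0.0589 to 12.3) and 1.2% of all. In shJunB cells the highest class lost 19.9% (13.5 to 27.6) against 5.56% (1.16 to 15.4), whose intervals overlap, and in shCEBP-beta cells 27.9% (21.0 to 35.7) against 5.26% (1.1 to 14.6).

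**Figure D4:**
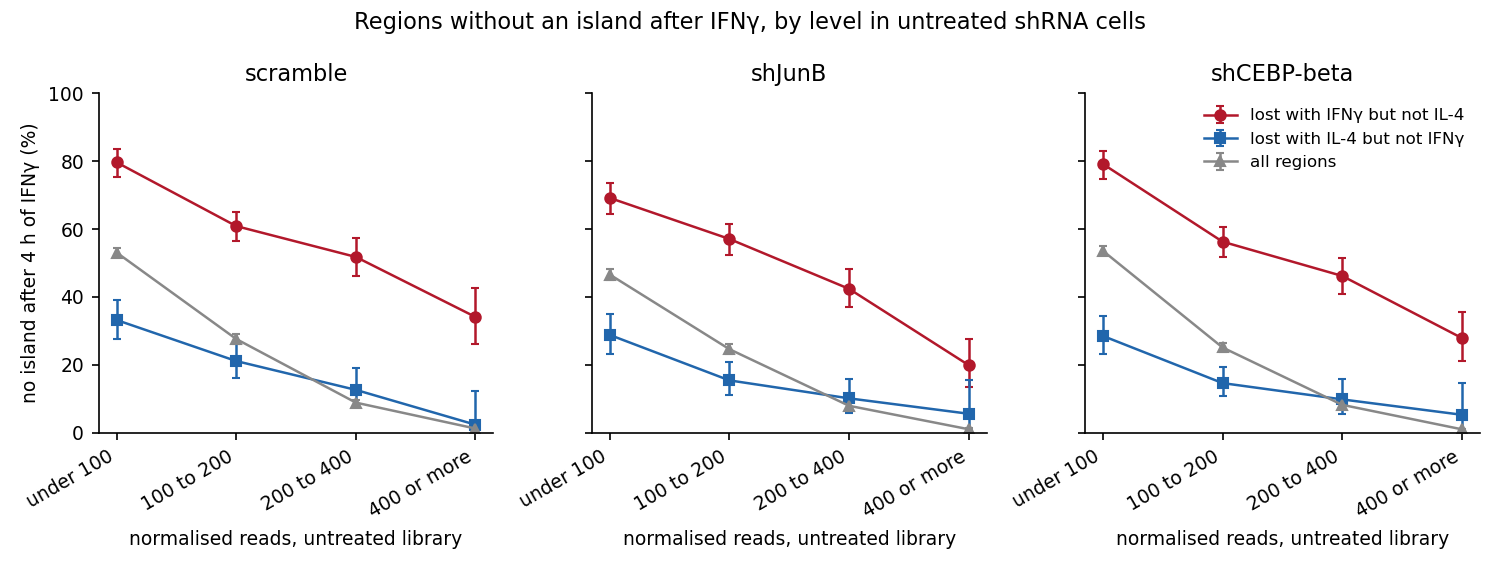
Percent of regions with an island in untreated hairpin cells that had none after 4 h of IFNγ (vertical axis), by normalised reads in the untreated library (horizontal axis), for the 3 backgrounds, with exact 95% intervals of counting error. The red line of the IFNγ-lost regions lies above the blue and grey lines in each class, from 79.7% to 34.1% in scramble cells.

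Over the 3 pairs together, 1153 of the 1768 IFNγ-lost regions had fewer islands with IFNγ than without (16.2% of all regions with an untreated island did), 585 had as many and 30 had more. In 398 of the 1768 all 3 untreated hairpin libraries and none of the 3 with IFNγ held an island, as in 4.07% of all regions with an untreated island. In 194 no hairpin library held one, so for these the knockdown experiment gives no value. An island in every library without IFNγ was found at 798 IFNγ-lost regions, and 110 of these had none in any of the 5 libraries with 4 h of IFNγ. Over the whole series 16407 regions had an island in every library without IFNγ and 110 of them (0.670%) lacked it in all 5, the same regions, as the rule requires. Of the 110, 89 had none with IFNγ alone at 2 h and 77 none in any library with IFNγ.

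The 10 of these 110 regions with the most reads in untreated cells lay over Wdr75, Abca9, Ctbp1, Slc7a13, Cables1, Zfand6 and Clcn4, and near Dnajc5b, Rasd2 and Agr3. Abca9, a lipid transporter of the ABC A family (chr11:110159201-110170000), had no island after IFNγ in scramble, shJunB and shCEBP-beta cells, against 668.9, 616.1 and 537.2 reads untreated. In the cytokine experiment it had 167.9 reads with IFNγ at 2 h, 156.4 with both cytokines at 2 h, 143.8 and 270.5 with IL-4 at 2 h and 4 h, and 1117.8 in untreated cells. Ctbp1, a transcriptional co-repressor, had 115.6, 134.6 and 135.0 reads in the untreated hairpin cells and 900.5 in untreated cells of the cytokine experiment. Slc7a13, an amino acid transporter, Zfand6, a zinc-finger protein, and Clcn4, a chloride and proton exchanger, had no island in any library with IFNγ. Clcn4 had 316.6, 362.1 and 337.8 reads in the untreated hairpin cells and 497.6 in untreated cells.

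Levels could be tested at the 347 IFNγ-lost regions with an island in all 6 hairpin libraries, which are those that IFNγ did not remove there and so are not typical of the 1768. With IFNγ 202 of them were lower (58.2%) and 3 higher (0.865%) at an adjusted p below 0.05 by edgeR's quasi-likelihood test, with hairpin background as a term, over 17047 regions. Over all regions tested 21.9% were lower and 22.7% higher. The median log2 difference was -0.75 over the 347 and 0.01 over all. Among 405 regions lost with IL-4 only, 12.3% were lower and 32.3% higher, with a median of 0.28. Of 100 regions without an island in either the IFNγ 4 h or the IL-4 4 h library, 44.0% were lower and 2.0% higher, with a median of -0.52. A region missing an island in 1 or more hairpin libraries could be included only by filling in. Its missing value was set to the 5th percentile of that library's islands. Then 710 of 1574 IFNγ-lost regions were lower (45.1%), where 16.5% of all were, and 3 higher, where 16.6% were. Many of the 1574 entered through untreated libraries alone and had their IFNγ values filled in, so the direction is largely set by the filling and nothing is read from these shares.

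The islands of these regions also became shorter, and reads summed over a shorter length are fewer. Over IFNγ-lost regions called in both libraries of a pair, the median called length was 2.8 kb with IFNγ against 4.8 kb untreated in scramble cells, 3.2 against 5.0 kb in shJunB cells and 3.0 against 4.8 kb in shCEBP-beta cells. Over all regions it was 5.6 against 5.8, 6.2 against 6.4 and 5.8 against 5.8 kb. With the called length as an offset, so that density within islands is compared, 81 of 347 were lower (23.3%), where 9.83% of all were, and 1 was higher, where 10.2% were. The median log2 difference was then -0.32. The log2 differences of the named regions called lower were smaller in size in this setting, for example -0.97 at Gas6, -1.06 at Kif3a and -0.86 near Chic2 (edgeR, adjusted p = 3.02e-05, 0.00106 and 0.00436).

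**Figure D5:**
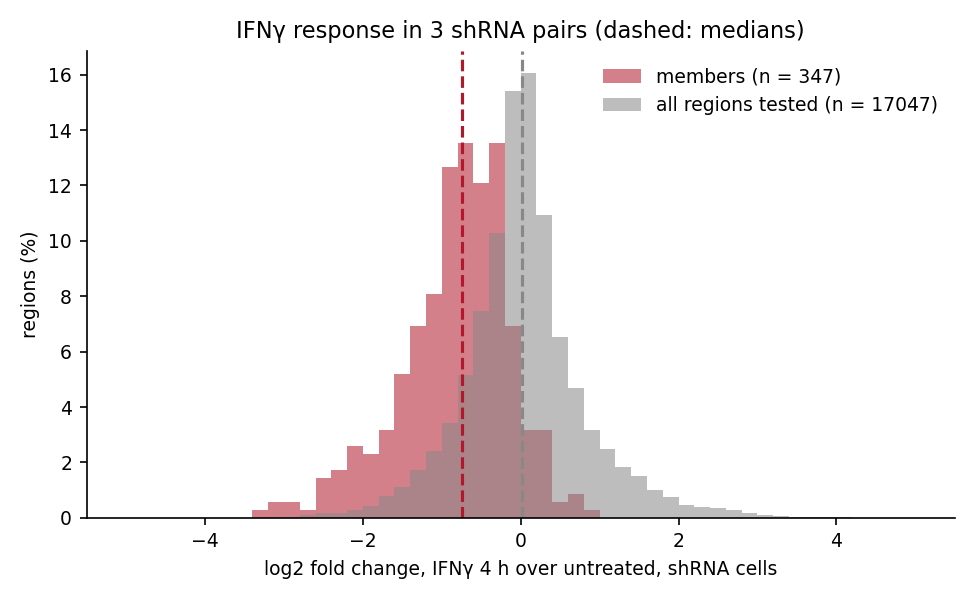
Share of regions (vertical axis) by the log2 difference of IFNγ 4 h over untreated hairpin cells (horizontal axis, edgeR), for the 347 IFNγ-lost regions with an island in all 6 libraries in red and all 17047 regions tested in grey. Dashed lines are the medians, -0.75 for the IFNγ-lost regions and 0.01 for all.

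The largest differences past the threshold were at 10 regions, all lower with IFNγ. The region 2.94 kb from Sdr16c5, a retinol dehydrogenase gene (chr4:3975401-3993000), had 60.5, 49.3 and 116.3 reads with IFNγ in scramble, shJunB and shCEBP-beta cells, against 730.5, 735.6 and 700.1 untreated. Its log2 difference was -3.28 ± 0.28 (edgeR, adjusted p = 0.00108). In the cytokine experiment it had 247.9 and 708.8 reads with IL-4 at 2 h and 4 h, against 713.6 in untreated cells. With both cytokines it had 291.9 reads at 2 h and no island at 4 h. Coro2b, an actin-binding coronin, had 63.8, 86.6 and 50.7 reads with IFNγ against 534.9, 530.8 and 765.4 untreated, a log2 difference of -3.17 ± 0.27 (edgeR, adjusted p = 0.00112). The region 23.9 kb from Nrg2, a neuregulin, had 98.2, 125.0 and 123.2 reads with IFNγ against 966.0, 955.5 and 1023.1 untreated, a log2 difference of -3.06 ± 0.12 (edgeR, adjusted p = 0.000413). With IL-4 at 4 h it had 2706.4 reads and with both cytokines 1092.6, against 1217.3 in untreated cells. The region near Lrig2 was at -2.96, that over the zinc-finger gene Zfat at -2.87, that over the kinase gene Vrk3 at -2.59 and that over Mrap2, a melanocortin receptor accessory protein, at -2.48. The region over Eif3d, a translation initiation factor subunit, and Foxred2 was at -2.47, and Gas6 and the region near Chic2 complete the 10. With the called length as an offset, Coro2b, Zfat, Vrk3, Mrap2 and the region over Eif3d and Foxred2 no longer passed, with adjusted p-values of 0.383, 0.508, 0.206, 0.291 and 0.222 by edgeR.

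IFNγ-lost regions that were higher with IFNγ in the knockdown experiment numbered 3 and were named after their values were seen. Fkbp5, an immunophilin known as a glucocorticoid target, had 232.3, 309.1 and 210.7 reads with IFNγ in scramble, shJunB and shCEBP-beta cells, against 150.2, 170.6 and 112.3 untreated (log2 difference 0.82 ± 0.14, edgeR, adjusted p = 0.008). In the cytokine experiment it had no island with IFNγ at 4 h, 103.2 reads at 2 h, 185.3 with IL-4 at 4 h and 52.2 in untreated cells. Spred2, an inhibitor of Ras and MAP kinase signalling, was at 0.73 ± 0.20 (adjusted p = 0.0359), and the region over Capn5 and Myo7a at 0.38 ± 0.11 (adjusted p = 0.039), both by edgeR on the log2 scale. With the called length as an offset Fkbp5 and Spred2 changed sign, at -0.19 and -0.18. Spred2 lost its call with DESeq2 (adjusted p = 0.0755), with missing islands filled in (edgeR, 0.0838), without shJunB (0.131) and without shCEBP-beta (0.108). Capn5 and Myo7a lost theirs with DESeq2 (adjusted p = 0.182), with no background term (edgeR, 0.226), with islands filled in (0.0891), with the offset (0.0551) and without any 1 background (0.0651 to 0.196).

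Between hairpins the levels at IFNγ-lost regions called in both libraries differed little in the median. With IFNγ, shJunB over scramble cells had a median log2 difference of 0.045 over 417 regions called in both, and shCEBP-beta over scramble cells 0.003 over 436, against 0.016 and 0.023 over all regions. In untreated cells the medians were -0.069 and 0.047, against -0.015 and -0.004 over all. Islands matched less well with IFNγ. With IFNγ, 218 IFNγ-lost regions had an island in shJunB cells only and 135 in scramble cells only, 45.8% of those with either, where the share over all regions was 18.3%. For shCEBP-beta over scramble cells with IFNγ it was 190 and 116, 41.2% against 15.3%. In untreated cells these shares were 20.8% against 18.9% of all for shJunB and 15.1% against 16.0% for shCEBP-beta. Each is 1 library against 1, with no replicate check. With IFNγ the scramble, shJunB and shCEBP-beta libraries had 10.1, 15.9 and 17.5 M reads in islands. The IFNγ-lost regions called there had medians of 99.0, 99.8 and 98.4 normalised reads, against 317.4, 297.1 and 301.2 over all regions. The shares were not matched for level or for reads in islands, and the part of either in the unmatched islands was not tested.

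Many of these regions lacked an island in the IFNγ 2 h library too. Of the 1124 with an island in IL-4 2 h cells, 709 had none in IFNγ 2 h cells (63.1%, exact 95% interval 60.2 to 65.9), where the share over all 21255 regions was 15.8%. With both cytokines at 2 h 490 had none (43.6%, 40.7 to 46.6), where the share over all was 12.5%. Where both libraries held an island, IFNγ 2 h cells were at least 2-fold lower at 27.5% of 415 regions, where 10.2% of all were, and cells with both cytokines at 25.7% of 634, where 11.6% of all were. The median log2 differences were -0.39 and -0.36, against -0.04 and -0.06 over all regions. Per kb of called length these medians were -0.076 and -0.054, against -0.001 and -0.004 over all. Of the 1741 regions without an island in either the IFNγ 4 h or the IL-4 4 h library, 106 held one with IL-4 at 2 h. Of these 62.3% had none with IFNγ at 2 h and 53.8% none with both cytokines. Of the 202 such regions lost with IL-4 only it was 11.9% and 17.3%. Where called in both libraries, median log2 differences were 0.55 and 0.22 for the first group and 1.31 and 1.21 for the second. The comparisons of IFNγ and of both cytokines at 2 h share the IL-4 2 h library. The rule required an island with IL-4 and none with IFNγ at 4 h, so the direction at 2 h is in part set by it. Shares over all regions were not matched for level. Where called in IL-4 2 h cells, the IFNγ-lost regions had a median of 114.8 normalised reads there and all regions 328.5. Reads in islands were 18.8 M with IFNγ, 20.8 M with both and 18.9 M with IL-4.

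The regions split by their island with IFNγ plus IL-4 at 4 h. The 895 that held one had a median of 123.2 reads with IL-4 at 4 h and 150.5 in untreated cells, and the 873 without had 70.4 with IL-4 and 118.9 in untreated cells. In the knockdown experiment the 895 lost 53.2%, 45.8% and 49.3% of their untreated islands with IFNγ in scramble, shJunB and shCEBP-beta cells, and the 873 lost 71.1%, 62.4% and 66.0%. Both groups were above the 15.6% to 19.0% of all regions, which were not matched for level. Among all regions with under 100 untreated reads the losses were 53.1%, 46.6% and 53.6%. Levels did not differ in the same way where all 6 hairpin libraries held an island. There edgeR called 141 of 233 of the first group lower (60.5%) and 61 of 114 of the second (53.5%), where 21.9% of all were. The median log2 difference was -0.75 in both groups. An island with IFNγ at 2 h was present at 36.6% of the 895 and 19.9% of the 873, and neither with IFNγ alone at 2 h nor with both cytokines at 4 h was one called at 699 regions.

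The regions were also split by their level with IL-4 at 4 h against untreated cells. The 194 at least 2-fold higher with IL-4 at 4 h than in untreated cells had an island with IL-4 at 2 h in 96.4%, with both cytokines at 2 h in 71.6% and at 4 h in 82.0%, but with IFNγ alone at 2 h in 32.5%. The 607 at least 2-fold lower with IL-4 had one in 48.6%, 44.3%, 44.2% and 29.3%. In scramble, shJunB and shCEBP-beta cells the 194 lost 53.4%, 51.1% and 51.8% of their islands with IFNγ. The 967 lost 57.7%, 49.6% and 53.5%, and the 607 lost 69.7%, 59.7% and 63.9%. The split used libraries of the rule, so it carries no test and nothing is read from it.

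Most IFNγ-lost regions lay away from promoters. Of the 1702 on chromosomes with promoters searched, 164 regions (9.64%) overlapped a promoter, against 45.2% of the kept regions, 5.82% of those lost with IL-4 only, 3.27% of those without an island in either 4 h library and 37.1% of all regions with an untreated island. Their median length was 5600 bp, against 10200 bp and 6200 bp, and the overlap was not adjusted for length. Within 1 kb of a protein-coding gene lay 1181 (66.8%), and 587 (33.2%) touched none. Of all regions with an untreated island 76.0% lay near a gene and 24.0% touched none, and of the kept regions 79.6% and 20.4%. Of those lost with IL-4 only it was 58.5% and 41.5%, and of those without an island in either 4 h library 60.5% and 39.5%. Over all 39569 regions, with or without an untreated island, it was 68.5% and 31.5%. The nearest island in IFNγ 4 h cells was a median of 14.0 kb away. Under 1 kb away it was at 13 regions, and over 10 kb away at 1072 (60.6%). The regions spread over the genome, from 6.5% of the regions with an untreated island on chromosome X to 9.98% of those on chromosome 4, with 0 of 5 on chromosome Y.

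In all, IFNγ-lost regions touched 1081 of 21900 protein-coding genes (4.94%), or 8.28% of the 13055 with a region holding an untreated island, of which 945 were touched by 1 region. Long genes held several. Nav2, a neuron navigator gene of 651 kb, held 6, and Foxn3, a forkhead repressor gene of 374 kb, held 5. Igf1r, the receptor of insulin-like growth factor 1, held 4 in 281 kb. One of these overlapped the Igf1r promoter (chr7:67950201-67956200) and had 255.2, 171.0 and 189.8 reads with IFNγ in scramble, shJunB and shCEBP-beta cells, against 490.6, 344.1 and 345.7 untreated. Its log2 difference was -0.92 ± 0.12, and that of another at chr7:68126401-68132000 was -1.59 ± 0.29 (edgeR, adjusted p = 0.00309 and 0.00903).

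Touched shares were taken over the annotated genes of a list, as the 4.94% was over all protein-coding genes. Most genes on the lists of macrophage biology had a region with an untreated island. The share over all genes with such a region was 8.28%, which has a different base from the list shares. The lists were chosen with earlier results of these data known, and a touched gene is one within 1 kb of an IFNγ-lost region, with no test. Of 24 genes of cholesterol synthesis, which SREBP factors regulate, 3 were touched (12.5%). The region over Hmgcs1, the synthase that feeds the mevalonate pathway, and Nim1k did not reach the Hmgcs1 promoter in the table. It had 221.7 reads with IFNγ at 2 h and no island at 4 h, 742.1 with IL-4 at 4 h and 1365.4 in untreated cells. With IFNγ it was not called in scramble and shJunB cells and had 131.2 reads in shCEBP-beta cells, against 985.5, 583.9 and 865.5 untreated. The region over Ddr2 and Hsd17b7, a ketosteroid reductase of the same pathway, did not pass (log2 difference 0.20 ± 0.17, edgeR, adjusted p = 0.374). All 6 hairpin libraries held an island there.

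Of 20 genes of lipid handling 2 were touched (10.0%). Abca9 held 3 regions, and the one at chr11:110128001-110135200 fell by 2.07 ± 0.27 on the log2 scale (edgeR, adjusted p = 0.00334; 0.0534 with the called length as an offset). Mgll, monoglyceride lipase, had 42.5 reads in untreated cells and an island in 4 libraries, none of them with IFNγ. Of 30 genes of alternative activation, 21 had a region with an untreated island. Only Mrc1, the mannose receptor, was touched (3.33% of the 30). Its region had 164.6 reads with IFNγ at 2 h, 382.5 and 153.8 with both cytokines at 2 h and 4 h, 307.1 and 130.6 with IL-4 at 2 h and 4 h, and 69.2 in untreated cells. No hairpin library held it, so Mrc1 rests on the cytokine libraries alone.

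Of 22 scavenger and efferocytosis receptors and ligands 3 were touched (13.6%), Gas6, Stab2 and Itgb5. Stab2, a hyaluronan and phosphatidylserine receptor best known from sinusoidal endothelium, had 109.6 reads with IFNγ in scramble cells and no island with it in shJunB and shCEBP-beta cells, against 934.7, 624.7 and 960.4 untreated. Itgb5, the integrin β5 subunit, had 379.5, 469.2 and 307.1 reads with IFNγ against 309.0, 544.1 and 496.3 untreated, and did not pass (log2 difference -0.19 ± 0.20, edgeR, adjusted p = 0.467). Of 23 chemokine and growth factor receptors 2 were touched (8.7%), Igf1r and Tgfbr1, and of 23 integrins and adhesion genes 2 (8.7%), Itgb5 and Itga4. Itga4, the integrin α4 subunit, had no island with IFNγ in any background, against 102.7, 160.2 and 73.1 reads untreated. Jak1, the kinase shared by the IFNγ and IL-4 receptors, was the single gene touched among 24 of JAK-STAT signalling, with 65.4 and 140.1 reads with IFNγ in scramble and shCEBP-beta cells against 98.3 and 227.3 untreated, and no island with IFNγ in shJunB cells against 140.3 reads untreated. Of 19 inhibitors of MAP kinase and growth signalling 2 were touched, Spred2 and Rasa2. Rasa2 had an island in 2 libraries in all, those required by the rule.

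No gene was touched on the lists of macrophage identity (20 genes), cell cycle and DNA replication (26), AP-1, C/EBP and MAF factors (23) and housekeeping (18). The same held for chemokines (22 annotated of 23) and interferon-stimulated genes (24 annotated of 26). Macrophage markers had islands at 8 of 8 genes in every library. T-cell markers had them at 4 or 5 of 8, with Cd3g, Cd8a and Zap70 at none in any library, B-cell markers at 6 of 8, with Pax5 and Ebf1 at none, and neutrophil markers at 3 to 5 of 8, with Mpo, S100a9 and Ly6g at none. Fibroblast markers had them at 1 to 3 of 8, and Col1a2, Col3a1, Pdgfra, Dcn and Lum had none anywhere. Summed reads over the T-cell list were 8002.6 to 8711.4 in the 5 libraries with 4 h of IFNγ, against 7731.9 to 15457.3 in the 6 without IFNγ. In the pair that chose the regions the T-cell list had 8122.7 reads with IFNγ at 4 h against 15457.3 untreated, and the B-cell list 9385.8 against 14359.0. The neutrophil list was higher with IFNγ there, at 11103.5 against 9948.5. The fibroblast list had 12935.2 against 13507.0 and the macrophage list 62638.8 against 66396.4. Cd28, on the T-cell list, was itself touched by an IFNγ-lost region. That region had no island after IFNγ in any background, and 48.6 and 76.6 reads in untreated scramble and shCEBP-beta cells. The part of other cell types in the lost islands was not tested.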

How the data were processed

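H3K27ac was immunoprecipitated and sequenced in 13 macrophage libraries. The deposited tables list 1 library's islands each, with raw ChIP and control read counts and, per the file layout, the authors' p-value, FDR (adjusted p-value) and fold over the control. Per the submitters' processing notes reads were aligned with Bowtie2 2.2.6 and islands called with SICER 1.1 on mm10/GRCm38. At 29680 of 29680 island positions found in several libraries the control counts were equal.

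Islands overlapping by 1 bp were merged. Reads were summed per region and scaled by median-of-ratios factors. edgeR 4.0.16 (quasi-likelihood, TMM, hairpin background plus IFNγ, Benjamini-Hochberg over all regions tested) was fitted to the 6 hairpin libraries over regions with an island in all 6, and was tested on simulated data. DESeq2 1.42.0 served as an alternative. The shared background is the pairing of each IFNγ library with its untreated partner. Reads in islands were 10.1 to 29.5 M and islands covered 176.3 to 243.7 Mb. Intervals are exact binomial and cover counting error only.

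Regions named are the 10 over genes and the 5 between genes with the most untreated reads, the 10 largest edgeR changes, those over listed genes, and the 10 strongest with an island in every library without IFNγ and none with 4 h of IFNγ. The regions and lists were chosen with earlier results of these data known. Region sequence outside promoters was not used here, and some items are not reported here.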

Additional observations from a re-analysis of the deposited data

Results flagged for a closer look

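Spred2, Fkbp5 and the region over Capn5 and Myo7a had no island with IFNγ at 4 h in the cytokine experiment, as the choice of regions required, yet were higher with IFNγ than untreated in 3 of 3 hairpin backgrounds, with edgeR log2 differences of 0.73, 0.82 and 0.38. A missing island is not a measured fall, and the difference between the experiments was not tested. With the called length as an offset Spred2 (-0.18) and Fkbp5 (-0.19) changed sign. Fkbp5 had 103.2 normalised reads with IFNγ at 2 h against 52.2 in untreated cells of the cytokine experiment.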

How the results depend on the processing

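The number of IFNγ-lost regions was 1737 with islands at FDR below 0.001, 1326 with at least 50 normalised reads, 1765 when absence was judged with 600 bp either side, 2358 when islands were merged over the 3 libraries of the rule only and, in a setting chosen after seeing the data, 1754 when touching islands were merged. Regions lower with IFNγ in hairpin cells (202) numbered 710 of 1574 with missing islands filled in, 180 with DESeq2, 172 with no replicate block (no term for hairpin background) and 142 to 161 without 1 background, when higher ones (3) numbered 2 to 3 and the median (-0.75) was -0.81 to -0.70. With the called length as an offset, also chosen after seeing the data, 81 were lower and 1 higher and the median was -0.32. Higher ones numbered 5 at FDR below 0.001. For IFNγ at 2 h the median (-0.39) was -0.076 per kb. For both cytokines at 2 h (-0.36) it was -0.054 per kb, -0.47 when scaled by all reads in islands and -0.52 with missing islands filled in. The offset turned the sign at Ephb2 (0.58), Spred2 (-0.18), Fkbp5 (-0.19) and Hsd17b7 (-0.21), and leaving out 1 background gave -0.44 to 0.05 at Itgb5, the last without shCEBP-beta. Among single-region values recomputed, 269 kept direction and call, 17 lost the call and 5 changed sign. A region without a value in a setting was not counted there. With islands at FDR below 0.001 this held, among others, for Adgrv1, Tmcc1, Mrap2, Spred2 and the regions near Sdr16c5 and Lrig2. Samples have no replicate numbers to pair beyond the hairpin background. Weak regions near the island threshold can lose an island by depth alone, and the cause of no change above was tested beyond what each setting does.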
